A study of Homo sapiens with 2 samples.

Results

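The genes of the proteasome were examined in a map of HOXA5 binding in TFK-1 cells, an established line of human extrahepatic cholangiocarcinoma, a cancer of the bile ducts outside the liver. The set held 42 genes out of 20056 protein-coding genes of RefSeq GRCh38.p14: PSMA1 to PSMA7, PSMB1 to PSMB10, PSMC1 to PSMC6, PSMD1 to PSMD14, PSME1 to PSME4 and PSMF1. They were chosen by symbol, because genes of this family stood in the study's interleukin-1 and ubiquitin terms. The study drew these terms from genes with a peak whose RNA also changed on HOXA5 over-expression. PSMA3, PSMB9, PSMC3, PSMC6 and PSMD3 were on that list of genes, picked in part by the peaks of these same libraries. These 5 genes are therefore no independent evidence, and the shares are also given without them. The other 20014 protein-coding genes gave the background. That background kept the other genes of the study's list, so shares without the 5 are not set against a like background.

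An anti-Flag antibody was used for CUT & Tag in LV-HOXA5 cells, which were transduced with a lentivirus for Flag-tagged HOXA5, and in LV-HOXA5-NC cells, which carried the matching negative control virus. Both were stable lines selected with puromycin, and the HOXA5 that was mapped was the tagged, over-expressed protein rather than the protein of the cell's own gene. In CUT & Tag a transposase tethered to the antibody cuts DNA beside the bound protein, and a peak is a stretch with more fragments than the local background. Each condition had 1 library, so no difference between them has a replicate check and no p-value between conditions can be given.

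The proteasome is the barrel-shaped protease that degrades proteins marked with ubiquitin chains. Its core is a stack of alpha and beta rings with the cutting sites on the inner face of beta subunits. A regulatory particle, made of a base with a ring of ATPases and a lid that removes ubiquitin, unfolds the substrate and feeds it into the core. HOXA5 is a homeodomain transcription factor, a class of proteins whose DNA contacts centre on the short core TAAT.

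The LV-HOXA5 list held 8043 peaks from 15778555 fragments and the LV-HOXA5-NC list 635 peaks from 1948734 fragments, or 12.4% of the depth. A gene end is either limit of the gene's span in the RefSeq table, and distance was taken from the end to the nearest edge of a peak, with 0 bp where the peak covered the end. A peak is called near an end below when that distance was at most 1 kb. The pileup is the number of fragments over the summit and the fold is the pileup relative to the local background of the same library.

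In LV-HOXA5 cells, 11 of 42 proteasome genes had a peak near an end, a share of 26.2% with an exact 95% binomial interval of 13.9 to 42.04%, against 12.9% of the other protein-coding genes (2588 of 20014). These were PSMA3, PSMB1, PSMB5, PSMC3, PSMC4, PSMC6, PSMD3, PSMD8, PSMD10, PSMD14 and PSME2. Of the 5 genes on the study's list, 4 were among them. Without those 5 genes the share was 7 of 37, 18.9% with an interval of 8.0 to 35.2%, which covers the background of 12.9%. No other gene of the study's list was left out of that background, so this is not a like comparison. All intervals here cover counting error only, and genes are not replicates of a condition.

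With peaks inside the gene or within 3 kb counted as well, 14 of 42 proteasome genes had a peak, 33.3% with an interval of 19.6 to 49.5%, against 20.6% of the other genes. PSMA6, PSMB7 and PSME1 were the genes added. Without the 5 listed genes the count was 10 of 37, or 27.0%. When each peak was given only to its nearest protein-coding gene, 13 of 42 proteasome genes held a peak (31.0%), against 22.8% of the others, and without the listed genes 8 of 37 did (21.6%).

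In LV-HOXA5-NC cells, 0 of 42 proteasome genes had a peak near an end, which allows a share of up to 7.14% when 3 counts are taken as the limit of a count of 0 (the exact 95% upper bound is 8.41%), against 0.0700% of the other genes (14 of 20014). The count inside or within 3 kb was also 0, against 0.650% of the other genes. The control peak closest to any proteasome gene lay 26714 bp from PSMD14. At 12.4% of the depth the pileups of the 11 proteasome peaks would be 1.11 to 4.45 fragments, and the lowest pileup in the control list was 4. Only the peaks of PSMC3 and PSMD3, at 4.08 and 4.45 fragments after scaling, reached that level, so for the other 9 genes a peak of the same strength would have stood below the lowest one listed in the control.

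**Figure D1:**
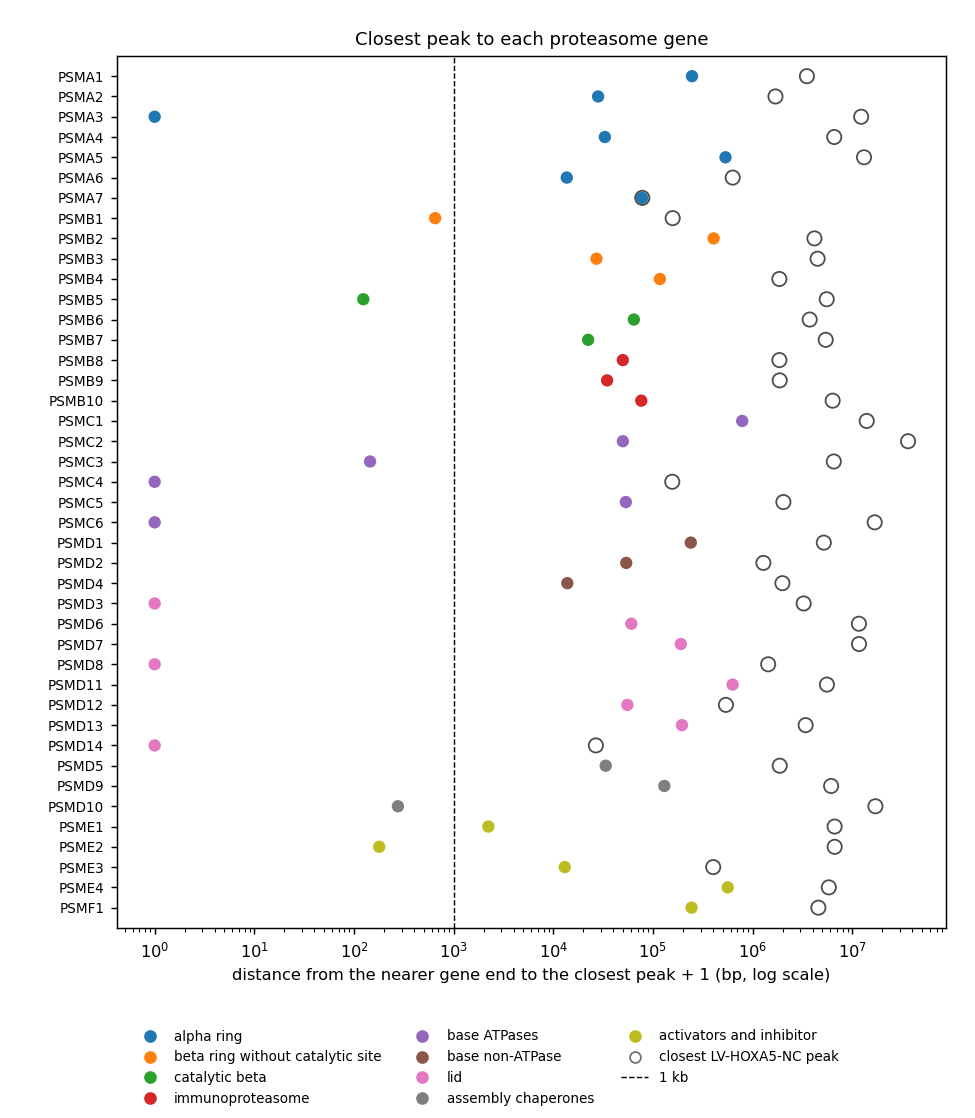
Distance from the nearer end of each of the 42 proteasome genes to the closest LV-HOXA5 peak (filled points, coloured by subcomplex) and to the closest LV-HOXA5-NC peak (open circles), in bp on a log scale with 1 added; the dashed line marks 1 kb. The filled points of 11 genes lie left of the line and every open circle lies right of it, the nearest at 26714 bp (PSMD14).

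Among the base ATPases, the motor subunits that unfold the substrate, 3 of 6 had a peak near an end (50%, interval 11.8 to 88.2%). The lid genes were at 3 of 8 (37.5%, interval 8.52 to 75.5%). Both intervals cover the 12.9% of the other protein-coding genes. Of these genes, PSMC3, PSMC6 and PSMD3 were on the study's list. Outside it were PSMC4 of the base ATPases, and PSMD8 and PSMD14 of the lid. PSMC3 had a peak at chr11:47426583-47427237, which ended 144 bp before the gene, with a pileup of 33 fragments, a fold of 7.03 and a −log10 q of 16.0. PSMC4 was covered by a peak at chr19:39970797-39971381 with a pileup of 27 and a fold of 5.29, which also covered an end of the long non-coding gene LOC124904720. PSMC6 was covered by a weaker peak at chr14:52706929-52707455, with a pileup of 14 and a fold of 4.70. PSMC1, PSMC2 and PSMC5 had none. PSMC1 was the proteasome gene furthest from any peak, and the nearest, at 785216 bp, was the peak at RPS6KA5.

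Of the lid genes, 3 of 8 had a peak near an end, and all of these peaks covered the gene end. PSMD3, a scaffold subunit of the lid, had the highest of all proteasome peaks at chr17:39980383-39980838. Its pileup was 36 fragments (exact Poisson interval 25.2 to 49.8), its fold 7.78 and its −log10 q 19.2, and its fold was above that of 92.4% of all LV-HOXA5 peaks. PSMD8, another structural lid subunit, had a peak at chr19:38374405-38374691 with a pileup of 29 and a fold of 5.40. PSMD14, the deubiquitinase that cuts ubiquitin chains from the substrate, had the lowest pileup of the set, 9 fragments (4.12 to 17.1) with a fold of 4.10 and a −log10 q of 2.41 at chr2:161308378-161308668. The highest and the lowest proteasome peak by pileup thus belonged to the same subcomplex. They were picked as the extremes of the set, so the difference between them was not tested. PSMD6, PSMD7, PSMD11, PSMD12 and PSMD13 had no peak, nor did PSMD1, PSMD2 and PSMD4, the non-ATPase subunits of the base, which include the scaffolds and a ubiquitin receptor.

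In the core particle, 3 genes had a peak near an end, with PSMA3 of the study's list among them. The counts were 1 of 7 for the alpha ring (14.3%) and 1 of 4 for beta subunits without a catalytic site. They were 1 of 3 for catalytic subunits and 0 of 3 for PSMB8, PSMB9 and PSMB10. The share of the other protein-coding genes was 12.9%. Of the 7 alpha ring genes, whose products form the gate of the barrel, PSMA3 was covered by a peak at chr14:58244726-58245108 with a pileup of 18 and a fold of 5.45. PSMA6 had a peak at chr14:35292208-35292609 with a pileup of 13 and a fold of 4.49. It lay 13650 bp inside the gene span of the table, whose end may belong to a longer form, but covered the annotated start of the promoter table. PSMA1, PSMA2, PSMA4, PSMA5 and PSMA7 had no peak inside or within 3 kb. The peak closest to PSMA7, 77843 bp away, was also in the control list.

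Among the beta subunits without a catalytic site, PSMB1 alone of 4 genes had a peak within 1 kb, at chr6:170553958-170554543, with a pileup of 13 and a fold of 5.33. That peak ended 651 bp from PSMB1 and covered an end of TBP, the gene of the TATA-binding protein, with its summit 150 bp from the TBP end. PSMB2, PSMB3 and PSMB4 had none. Of the catalytic subunits, PSMB5, which carries the chymotrypsin-like site and is the target of bortezomib, had a peak inside the gene, 123 bp from its end, at chr14:23034697-23035097 with a pileup of 12 and a fold of 3.69, the lowest fold of the 11 peaks. PSMB7, with the trypsin-like site, had a peak only within the gene, 22343 bp from the nearer end, with a pileup of 17 and a fold of 5.31 at chr9:124392832-124393099, and PSMB6, with the caspase-like site, had none.

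PSMB8, PSMB9 and PSMB10 take the place of the catalytic subunits in the immunoproteasome, the interferon-inducible form that trims peptides for antigen presentation. None of the 3 had a peak within 1 kb, inside or within 3 kb. Their nearest peaks were 49798, 34626 and 76272 bp away, and PSMB8 and PSMB9, which are neighbours, shared the same nearest peak. The matching constitutive genes PSMB5, PSMB6 and PSMB7 lay 123, 64218 and 22343 bp from their nearest peaks. PSMB9 was on the study's list although its nearest peak was 34626 bp away, at chr6:32894477-32894754 with a pileup of 11. Of the protein-coding genes, PSMB9 had the end nearest to that peak.

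Of the chaperones that assemble the base, PSMD10, also known as the oncoprotein gankyrin, had a peak at chrX:108091817-108092263, 275 bp from its end, with a pileup of 11 and a fold of 4.92. PSMD5 and PSMD9 had none. Of the activators and the inhibitor, PSME2, a subunit of the interferon-inducible activator cap, had a peak at chr14:24146788-24147455, 178 bp from its end, with a pileup of 23 and a fold of 4.51. This peak covered an end of RNF31, a ubiquitin ligase gene that lies head to head with PSME2, and its summit was 378 bp from the RNF31 end and 643 bp from the PSME2 start. PSME1, the partner subunit of that cap, had its nearest peak 2227 bp away, at chr14:24141189-24142039 with a pileup of 30 and a fold of 5.31. That peak covered an end of EMC9 and lay nearer to the downstream end of PSME2 than to PSME1. PSME3, PSME4 and PSMF1, the gene of the proteasome inhibitor, had none.

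In 2 of the 11 genes, PSMB1 and PSME2, the peak was therefore nearer to another protein-coding gene than to the proteasome gene. At the 1 kb limit, PSMB1 was the last gene inside at 651 bp and PSME1 the next outside at 2227 bp. The 28 genes with no peak inside or within 3 kb lay 13017 to 785216 bp from the nearest peak, with a median of 70245 bp, so no gene stood just beyond the limits. Over all 42 genes the median distance from an end to a peak was 42212 bp, against 80430 bp for the other protein-coding genes.

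**Figure D2:**
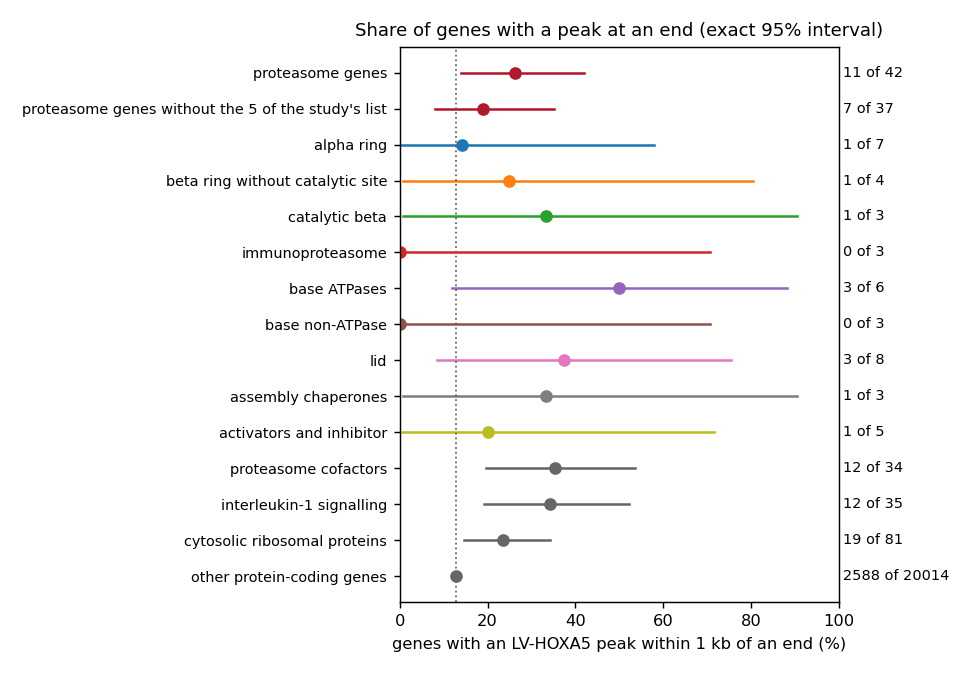
Share of genes with a peak near an end in LV-HOXA5 cells (%, points; 1 kb limit) with exact 95% binomial intervals (lines) for the proteasome genes, their subcomplexes, the comparison lists and the other protein-coding genes; the dotted line marks 12.9%. Immunoproteasome and base non-ATPase genes (0 of 3 each) lie at 0. Every other subcomplex lies right of the line, base ATPases (3 of 6) and lid genes (3 of 8) furthest. Of their genes with a peak, PSMC3, PSMC6 and PSMD3 were on the study's list. The intervals of all 9 subcomplexes cover the line.

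The peaks within 1 kb lay at the start of the gene where a start was annotated. Of the 37 proteasome genes with an entry in the RefSeq promoter table, 11 had a peak within 1 kb of the annotated start, 29.7% with an interval of 15.9 to 47.0%, against 13.4% of the other genes with an entry. Without the listed genes the count was 7 of 32, or 21.9% with an interval of 9.28 to 40.0%, which covers that background. These 11 include PSMA6 by its annotated start and leave out PSMB1, for which no strand was at hand. None lay within 1 kb of the other end of the gene, and among the other genes with a peak near either end 94.1% (2118 of 2251) had it at the start. With a limit of 3 kb, 11 of 13 lay at the start (84.6%). A single peak, at chr14:24141189-24142039, lay within 3 kb of the downstream ends of both PSME1 and PSME2. The 13 are therefore not separate peaks. The summits of 9 of the 11 were upstream, from 5 bp at PSMD14 to 643 bp at PSME2, while those of PSMA3 and PSMB5 lay 23 and 452 bp downstream.

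**Figure D3:**
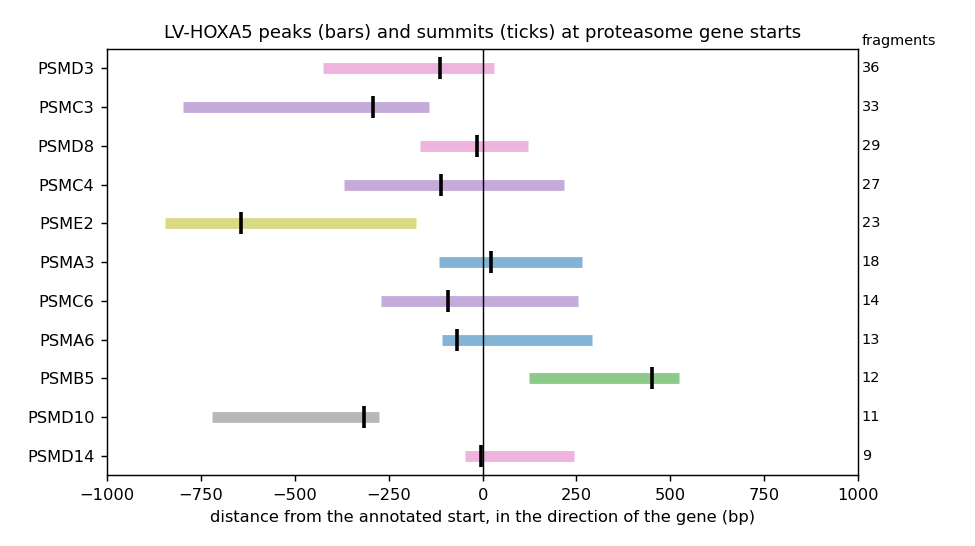
Position of the LV-HOXA5 peak (bar) and its summit (tick) relative to the annotated start of 11 proteasome genes, in bp along the direction of the gene, ordered by pileup, with the pileup in fragments at the right and colours by subcomplex. The bars of PSMC3, PSME2 and PSMD10 lie wholly upstream, that of PSMB5 wholly downstream, and the other 7 span the start.

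In height the proteasome peaks resembled those at other genes. The 11 peaks had a median pileup of 18 fragments, from 9 to 36, and a median fold of 5.29, from 3.69 to 7.78. The 2098 peaks near an end of another protein-coding gene had medians of 17 and 4.88, and all 8043 peaks 17 and 4.82. Without the listed genes the 7 remaining peaks had medians of 13 and 4.92. None of the 11 overlapped a control peak, against 10 of the 2098 peaks (0.477%) and 444 of all peaks (5.52%).

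**Figure D4:**
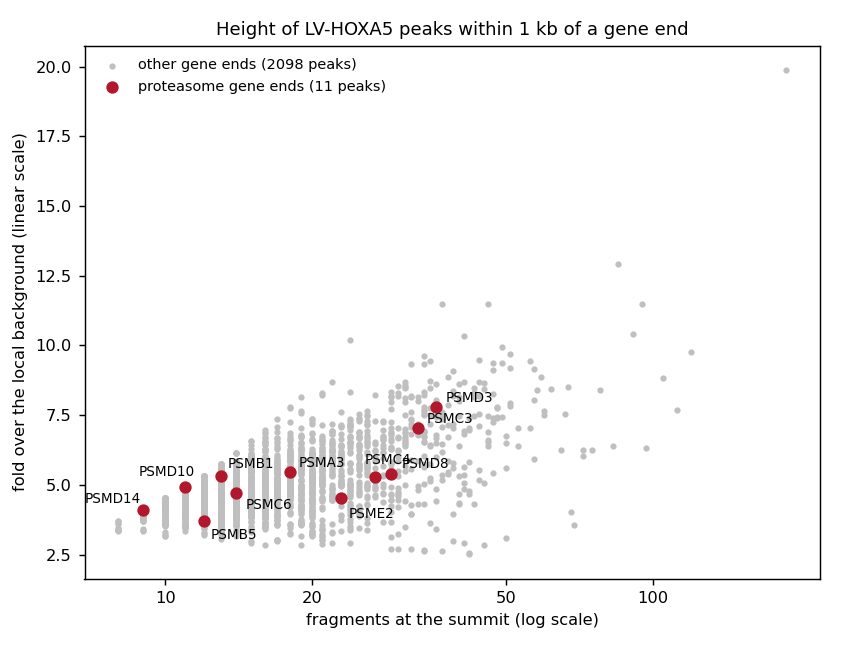
Pileup in fragments (log scale) against fold over the local background (linear scale) for peaks near a gene end (1 kb limit) in LV-HOXA5 cells, with 11 peaks at proteasome genes in red and 2098 at other protein-coding genes in grey. The red points lie within the grey cloud, with PSMD3 (36 fragments, fold 7.78) and PSMC3 (33 fragments, fold 7.03) highest.

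The promoters of these genes were compared with those of all genes, since among the other genes CpG-rich promoters had a peak near an end more often (18.6%) than the rest (5.75%). Promoter windows here run from 250 bases before to 50 bases after the start, and were called CpG-rich at a GC fraction of at least 0.5 and an observed to expected CpG ratio of at least 0.6. The proteasome promoters had a median GC fraction of 0.62 and a median of 22 CpG sites, against 0.627 and 22 for the other genes. Of the promoters with an entry, 78.4% of the proteasome genes' were CpG-rich, against 63.4% of the other genes'. Within CpG-rich promoters, 7 of 29 proteasome genes had a peak (24.1%, interval 10.3 to 43.5%), or 3 of 24 without the listed genes (12.5%, interval 2.66 to 32.4%), and among the rest 3 of 8 (37.5%, interval 8.52 to 75.5%). Of genes with another gene's end within 1 kb of their own, 3 of 22 proteasome genes had a peak (13.6%) against 18.5% of the others, and of genes without such a neighbour 8 of 20 (40.0%) against 8.50%. The intervals were 2.91 to 34.9% and 19.1 to 63.9%, the first of which covers its background. Of the 8 genes without a neighbour, PSMA3, PSMC3, PSMC6 and PSMD3 were on the study's list, and without the listed genes 4 of 16 remained (25%, interval 7.27 to 52.4%, which covers 8.50%).

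Upstream bases of 5 genes that lie inside the peak are given from RefSeq (GRCh38.p14), 5′ to 3′ in the direction of the gene, to show which of the TAAT core and the CCAAT box, a common promoter element, lie under the peak. Only these 5 of the genes with a peak at the start held such a match under the peak, and they were picked for it. Capitals mark TAAT or CCAAT on either strand, where ATTA and ATTGG are their reverse complements. PSMD3 is at chr17:39980557-39980806 on the plus strand, PSMC3 at chr11:47426583-47426689 on the minus strand, PSMD8 at chr19:38374405-38374570, PSMA3 at chr14:58244726-58244842 and PSMD14 at chr2:161308378-161308424 on the plus strand.
PSMD3: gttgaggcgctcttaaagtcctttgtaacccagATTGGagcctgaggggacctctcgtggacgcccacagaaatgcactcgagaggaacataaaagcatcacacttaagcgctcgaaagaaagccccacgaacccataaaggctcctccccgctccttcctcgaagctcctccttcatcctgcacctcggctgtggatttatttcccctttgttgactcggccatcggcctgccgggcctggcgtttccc
PSMC3: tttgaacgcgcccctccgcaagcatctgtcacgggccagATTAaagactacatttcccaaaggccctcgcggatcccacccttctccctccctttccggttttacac
PSMD8: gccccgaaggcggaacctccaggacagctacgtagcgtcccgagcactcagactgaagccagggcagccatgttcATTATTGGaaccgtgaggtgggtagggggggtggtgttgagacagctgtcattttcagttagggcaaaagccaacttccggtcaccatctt
PSMA3: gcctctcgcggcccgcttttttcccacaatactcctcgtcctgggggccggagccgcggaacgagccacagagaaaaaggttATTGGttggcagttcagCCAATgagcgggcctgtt
PSMD14: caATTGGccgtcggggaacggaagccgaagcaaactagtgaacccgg

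PSMC3 held a TAAT core 81 bp from its summit. In PSMD8 a TAAT core and a CCAAT box overlapped in the run ATTATTGG, which began 91 bases before the start and lay 73 bp from the summit. Another TAAT of PSMD8, 37 bases after the start and so not printed, lay under the peak 52 bp from the summit. PSMA3 held 2 CCAAT boxes under the peak, 37 and 54 bp from the summit, and its TAAT, 249 bases before the start, fell outside the peak. PSMD3, with the highest peak, had a CCAAT box and no TAAT in its window, and PSMD14 only CCAAT. The windows of PSMC4, PSMC6 and PSME2 held neither.

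The longer core TAATTA occurred in 1 of 37 proteasome promoters, that of PSMA6, against 3.34% of the others. It began 235 bases before the annotated start, at chr14:35292082-35292087 on the plus strand, 161 bp from the summit and outside the peak. The 30 bases around it, at chr14:35292070-35292099, are given with the core in capitals.
PSMA6: taagagacttgtTAATTAcacgttctattt

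Over the 37 promoter windows, on both strands, TAAT was found in 13 (35.1%) against 42.02% of the other genes, including 6 of the 11 with a peak at the start and 7 of the 26 without. Of these 6, only PSMC3 and PSMD8 held a TAAT under the peak. Among the other genes TAAT was in 38.6% of those with a peak at the start and in 42.5% of those without. CCAAT was found in 17 proteasome promoters (45.9%) against 36.3%, and in 7 of the 11 with a peak. Of these 7, PSMA3, PSMD3, PSMD8 and PSMD14 held a copy under the peak. Among the other genes CCAAT was in 51.8% of promoters with a peak and in 33.9% of those without.

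Elements known from proteasome and housekeeping promoters were searched in the same windows. TGACNNNGC, the antioxidant response element through which NFE2L1 drives proteasome genes, was in 11 of 37 (29.7%) against 14.3% of the other genes. It was in 3 of the 11 with a peak (PSMC4, PSMD3 and PSME2), against 14.6% of the other genes with a peak. A copy lay under the peak in PSMD3, 76 bp from the summit, and in PSMC4, 139 bp from it, while the copy in PSME2 fell outside the peak. CCGGAA, the core bound by ETS factors, was in 17 (45.9%) against 22.8%, and in 5 of the 11 with a peak against 33.1%. GGGCGG, the GC box, was in 24 (64.9%) against 58.5%, and in 6 of the 11 with a peak against 73.5%. CACGTG, the E-box, was in 3 (8.11%) against 8.88%, and in none of the 11 with a peak against 10.7%. These matches describe letters in the window, not bound sites.

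Partners of the proteasome were examined as a list of 34 assembly, ubiquitin and shuttle factors, of which 12 had a peak near an end (35.3%, interval 19.7 to 53.5%), against 12.9% of the other protein-coding genes. NFE2L1, the transcription factor that raises proteasome genes when the proteasome is inhibited, was covered by a peak with a pileup of 37 and a fold of 6.17. RPS27A and UBB, from which ubiquitin is made, had pileups of 20 and 16. The highest pileup of the proteasome genes, at PSMD3, was 36.

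Of 35 genes of interleukin-1 signalling, whose annotated terms share proteasome genes because the proteasome degrades the inhibitor of NF-kappaB, 12 had a peak near an end (34.3%, interval 19.1 to 52.2%), against the same 12.9%. The highest were at RPS6KA5, a kinase (35 fragments, fold 8.47), and NFKBIB, an inhibitor of NF-kappaB (34 fragments, fold 6.52), followed by BTRC and PELI1, ubiquitin ligase genes, at 20 each. NFKB1, PELI1, PELI2 and RPS6KA5 also stood in the study's list, so this share is not independent of it. Of 81 genes of cytosolic ribosomal proteins, another large housekeeping complex, 19 had a peak near an end, RPS27A of the list above among them (23.5% against 12.9%, interval 14.8 to 34.2%), among them RPL23A at 32 fragments. None of the 3 lists had a gene with a control peak near an end. The share of the proteasome genes, 26.2%, lay between that of the ribosomal proteins and that of the other lists, and all 4 intervals overlapped. Without the 5 genes on the study's list the proteasome share was 18.9% (interval 8.0 to 35.2%), below that of each of the 3 lists. No gene was left out of those lists.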

How the data were processed

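An anti-Flag CUT & Tag library was deposited for each of LV-HOXA5 and LV-HOXA5-NC, grouped by the sample labels. Per the file headers, the authors ran MACS 2.2.7.1 on each library alone, with paired-end fragments and duplicates removed, at a q-value of 0.05 and without a control library. Of the deposited values, the summit pileup signal (unscaled fragments), the fold enrichment and the −log10 q-value were used; the −log10 p-value deposited beside them was not needed. The submitters' processing notes name fastp, Bowtie2, deepTools, MACS2, ChIPseeker and GRCh38.

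From these, distances to gene ends in the RefSeq table (GRCh38.p14), shares with exact Clopper-Pearson 95% intervals, and motif matches were computed with Python 3.11.15, pandas 2.3.3 and SciPy 1.17.1. The distance code was tested on planted peaks. A minimum overlap of 1 bp counted as shared between lists. No test between conditions was possible with 1 library each. Every member with a peak was named, with its position, and of each list at most the 4 highest, some of which are not reported here. The members, lists and motifs were chosen with earlier results of these data known. Promoter entries were matched for 37 of 42 genes; PSMA7, PSMB1, PSMB6, PSMB7 and PSMD4 had no match.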

Additional observations from a re-analysis of the deposited data

How the results depend on the processing

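The share of proteasome genes with an LV-HOXA5 peak near an end (1 kb limit) stayed above that of the other genes at a q-value of 0.001 or less (21.4% against 11.2%), with peaks at or above the median fold only (16.7% against 6.93%), with peaks that covered an end (14.3% against 6.63%), within 500 bp (23.8% against 11.9%) and within 3 kb of an end (28.6% against 14.9%). Without the 5 genes on the study's list, added after seeing the data, these shares were 13.5%, 10.8%, 8.11%, 16.2% and 21.6%, and the nearest-gene share, 21.6%, and that of CpG-rich promoters, 12.5%, lay below the 22.8% and 18.6% of the other genes. The other genes kept those of the study's list, so these comparisons are not like for like. PSMB5 and PSMD14 were the genes lost at the stricter q-value. With all 42 genes, the order turned among the settings tried only for genes with another gene's end within 1 kb, at 13.6% against 18.5%. That setting was added after seeing the data. For genes without such a neighbour, a planned setting, the shares were 40.0% against 8.50%. For CpG-rich promoters, a setting not planned for the proteasome genes, they were 24.1% against 18.6%. The cause of these differences was not tested. For peaks inside or within 3 kb the other genes were at 17.8% with the stricter q-value, 11.2% at or above the median fold and 26.5% with CpG-rich promoters. Over all results, 50 alternatives left a value within its interval and 16 moved it beyond. No paired analysis was possible because each condition had 1 library, and for the same reason no library could be left out. The pileups of 9 of the 11 proteasome peaks fell below the lowest pileup of the control list once scaled to its depth.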
